A study of Homo sapiens with 4 samples.

Results

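The imprinted gene cluster at the tip of the short arm of human chromosome 11 was examined in whole-genome bisulfite sequencing of HUDEP-2 cells. All CpGs listed at chr11:1980000-2940000 (hg38), an interval that runs from downstream of H19 through H19, IGF2 and KCNQ1 to PHLDA2, were taken by position alone. They came to 10385 CpGs with a line in all 4 libraries, of 23269121 such CpGs in the series. HUDEP-2 is an immortalised line of human erythroid precursors from umbilical cord blood that grows under doxycycline and makes mainly adult haemoglobin. There was 1 library per group, so no value has a replicate, and every interval given is a 95% interval for counting error only. The non-differentiated library came from untreated, expanded cells. The other 3 came from differentiated cells, which spent 4 days in growth medium and then 2 days in maturation medium. They received DMSO alone, an inhibitor of DNMT1 or an inhibitor of EED, at a final 0.1% DMSO and starting at the expansion stage. The comparison of DMSO with the non-differentiated library is called differentiation below. It also takes in the vehicle and the culture stage, and these cannot be told apart. Neither compound is named or dosed in the sources used here, and the labels record higher fetal haemoglobin in both inhibitor-treated groups. Doxycycline was in the medium of all groups, and 1 cell line is a limited model of imprinting in tissue. The cell type itself was not checked here, since these data hold no expression values.

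Imprinted genes are expressed from 1 parental chromosome according to methylation laid down in the germ line at short control regions. This cluster has a pair of them. The control region upstream of H19 carries methylation on the paternal chromosome and, where unmethylated, is bound by the insulator protein CTCF, which keeps distant enhancers from IGF2, a fetal growth factor gene, and leaves them to H19, a non-coding RNA. The other lies at the start of KCNQ1OT1, a long non-coding RNA transcribed antisense within the potassium channel gene KCNQ1. It carries methylation on the maternal chromosome, and on the paternal one KCNQ1OT1 silences neighbours such as CDKN1C, a cyclin-dependent kinase inhibitor, and PHLDA2, which restrains placental growth. DNMT1 copies methylation onto the new DNA strand after replication. EED is the subunit of the Polycomb complex PRC2 that reads its histone mark. Bulk methylation levels do not separate the parental chromosomes.

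Of the 6 named genes, 3 could be described from CpGs listed in all 4 libraries: IGF2, KCNQ1 and KCNQ1OT1. The H19 control region, taken as 1000 to 5500 bp upstream of the H19 start (chr11:1998514-2003014, within introns of longer H19 transcripts), holds 189 CpGs of the reference and had no line in any library used here. The same held for the genes H19, CDKN1C and PHLDA2 and for the promoter of CDKN1C, so these are not analysed here. Long stretches without a line ran over chr11:1991934-2019055 (962 reference CpGs), chr11:2019832-2041048 (565) and chr11:2767881-2821587 (1103). Across the interval 48.6% of 21371 reference CpGs were listed in all libraries, against 81.8% on chromosome 11 as a whole. Mean coverage of the shared CpGs in the interval was 21.4 to 22.7 reads per library, which is 73.8 to 76.4% of that over all shared CpGs.

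The results turn on the KCNQ1OT1 control region, taken as 1000 bp on either side of the annotated KCNQ1OT1 start at base 2700003 (chr11:2699003-2701003, minus strand, an intron of KCNQ1 and, on the KCNQ1OT1 side of the start, the KCNQ1OT1 exon). Only 35 of its 181 reference CpGs were listed in all 4 libraries, at 19 to 22 reads per CpG on average. A stretch in which every CpG was listed is shown from the hg38 reference on the KCNQ1OT1 strand, with the CpGs listed in all 4 libraries in capitals. This downstream segment is chr11:2699043-2699303, 700 to 960 bp downstream of the start, and it holds 14 CpGs. Its levels were 28.2% non-differentiated, 32.0% with DMSO, 29.3% after the DNMT1 inhibitor and 41.1% after the EED inhibitor.
downstream segment: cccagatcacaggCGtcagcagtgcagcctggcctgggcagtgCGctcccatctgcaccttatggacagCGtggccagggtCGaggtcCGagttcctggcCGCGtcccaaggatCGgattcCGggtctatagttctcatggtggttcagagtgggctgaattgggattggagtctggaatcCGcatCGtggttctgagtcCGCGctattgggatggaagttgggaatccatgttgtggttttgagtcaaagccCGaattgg

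The KCNQ1OT1 control region was intermediately methylated and stood apart from its surroundings with the DNMT1 inhibitor. Its pooled level, methylated reads over all reads, was 35.1% (Wilson interval 31.6 to 38.8) in the non-differentiated library, 41.9% (38.4 to 45.6) with DMSO, 30.6% (27.4 to 34.0) under DNMT1 inhibition and 44.03% (40.6 to 47.6) under EED inhibition. The interval of the DNMT1 inhibitor library overlaps that of the non-differentiated library and no other. In the rest of the interval, 10350 CpGs, the levels were 61.4%, 60.5%, 15.0% and 60.1% in the same order. The control region was thus below the pooled rest of the interval in 3 libraries and above it with the DNMT1 inhibitor. The adjoining downstream flank, described below, was lower than the control region in every library. With borders at 500 bp the control region had 59.3% with DMSO.

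DNMT1 inhibitor minus DMSO was -11.3 points (Newcombe interval -16.2 to -6.43) in the control region and -45.6 points (-45.8 to -45.3) in the rest. Within the control region 26 CpGs were lower and 9 higher. In the rest 9452 were lower and 106 higher. As a share of the DMSO level, the DNMT1 inhibitor library retained 72.9% (63.5 to 83.8) in the control region and 24.7% (24.5 to 25.0) in the rest, a ratio of 2.95 (2.57 to 3.39). The control region CpGs on 1 read are not independent, which these intervals do not cover. With each 300 bp bin counted as 1 CpG, the shares were 53.0% (34.8 to 80.6) over 6 bins and 22.9% (22.3 to 23.4), with a ratio of 2.32 (1.52 to 3.53). The difference from DMSO moved with the CpGs taken, to -2.37 points over the 11 CpGs with at least 20 reads in each library, -27.2 with borders at 500 bp and -24.8 with borders at 1500 bp, while the ratio of retained shares stayed between 1.88 and 3.96.

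The control region was also set against CpGs of the rest chosen by level or by density. Neither filter was applied to the control region, so the sets are not matched to it. In the non-differentiated library the set chosen by level had 50.0% and the control region 35.1%. The 1939 CpGs of the rest that stood at 35 to 65% in the non-differentiated library had 50.8% with DMSO and 9.37% with the DNMT1 inhibitor, a retained share of 18.4%. The control region's share was 3.96 times that (3.43 to 4.56). The 1120 CpGs of the rest with at least 21 other CpGs within 250 bp had 59.0% and 16.2%, a retained share of 27.5%, and the ratio to them was 2.66 (2.30 to 3.06).

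**Figure D1:**
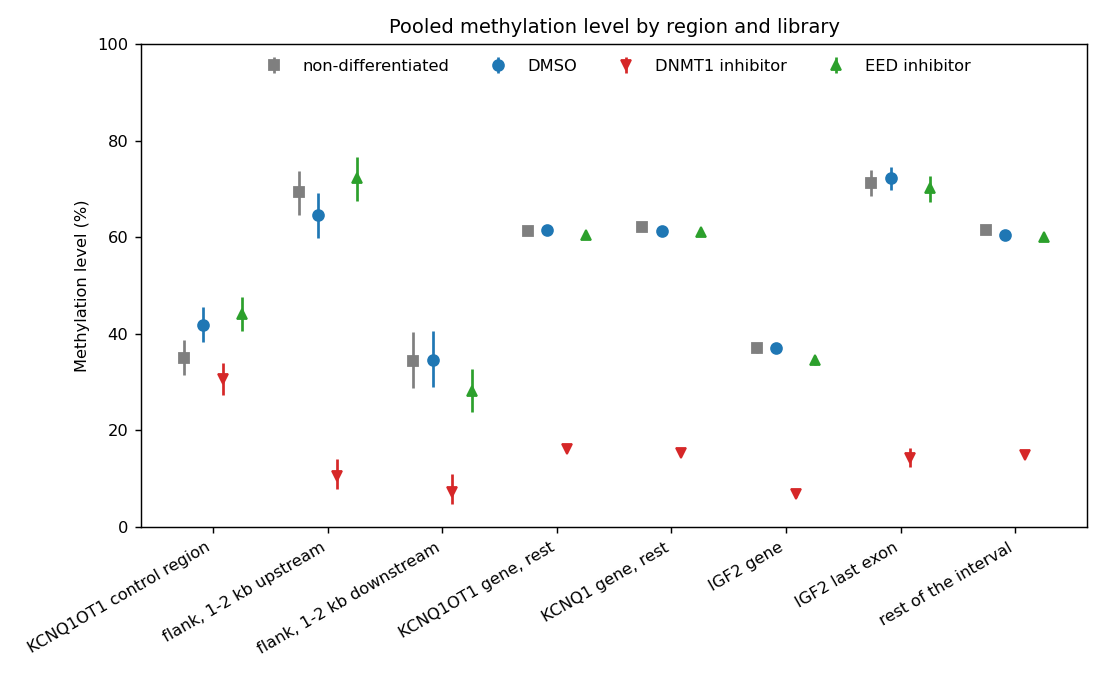
Pooled methylation level in percent (vertical axis, from 0) for 8 regions and 4 libraries; points are levels over CpGs listed in all libraries and bars are 95% Wilson intervals, often smaller than the point. With the DNMT1 inhibitor the KCNQ1OT1 control region stood at 30.6%, while its upstream and downstream flanks stood at 10.6% and 7.28%.

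The retained methylation was lower over the flanks, with no sharp border at 1000 bp. The nearest downstream CpGs outside, at 2698999, 2698988 and 2698972, had 42.1%, 55.6% and 27.8% with DMSO. With the DNMT1 inhibitor they had 22.2%, 25.0% and 11.8%. Inside the upstream border, the CpGs at 2700889 and 2700965 had 41.2% and 7.69% with DMSO and 9.09% and 0% with the DNMT1 inhibitor. In the 13 CpGs more than 1000 and up to 2000 bp downstream of the start the levels were 34.4% non-differentiated, 34.6% with DMSO, 7.28% after the DNMT1 inhibitor and 28.1% after the EED inhibitor. In the 17 CpGs at the same distance upstream they were 69.4%, 64.6%, 10.6% and 72.3%. The DNMT1 inhibitor library thus retained 21.01% of the DMSO level on the downstream side and 16.4% on the upstream side, near the share of the interval.

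Inside the control region the parts differed. The 20 CpGs lying more than 500 and up to 1000 bp downstream of the start, most of them in the downstream segment printed above, had 31.0% (26.9 to 35.4) non-differentiated, 35.6% (31.5 to 40.0) with DMSO, 31.3% (27.6 to 35.3) with the DNMT1 inhibitor and 44.2% (40.3 to 48.2) with the EED inhibitor. DNMT1 inhibitor minus DMSO was there -4.30 points (-10.0 to 1.43), with 11 CpGs lower and 9 higher. This part began at almost the same DMSO level as the downstream flank, where the difference was -27.4 points (-33.9 to -20.6).

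Nearer the start, the DNMT1 inhibitor library was lower than DMSO at each of the 13 CpGs within 500 bp that all 4 libraries list. They lie only at bases 2699892 to 2699977 and 2700037 to 2700136. Neighbouring CpGs there can share reads, so the 13 are not independent. The 6 CpGs 1 to 500 bp downstream had 46.5%, 55.3%, 25.4% and 39.3% in the order of the libraries above, a DNMT1 inhibitor difference of -29.99 points (-42.7 to -15.2). The 7 CpGs up to 500 bp upstream had 46.7%, 63.4%, 37.4% and 55.1%, a difference of -26.0 points (-38.7 to -11.9). Even so, 45.8% and 59.0% of the DMSO level were retained. The 2 CpGs more than 500 bp upstream, with 23 to 30 reads per library in all, had 20.8%, 26.7%, 4.00% and 8.70%.

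Single CpGs, chosen after their values were seen, show both patterns. In the downstream segment the CpG at 2699102 had 33.3%, 42.1%, 44.4% and 37.8% from 19 to 37 reads per library. The CpG at 2699259 had 25%, 30%, 50% and 53.6%. At the start, the CpG at 2699967 had 41.2%, 40.0%, 6.67% and 36.4%, and the CpG at 2700136, on the upstream side, had 27.3%, 66.7%, 54.5% and 60.0%, each from 11 to 20 reads. The first 2 were at least as high with the DNMT1 inhibitor as with DMSO and the last 2 were lower.

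**Figure D2:**
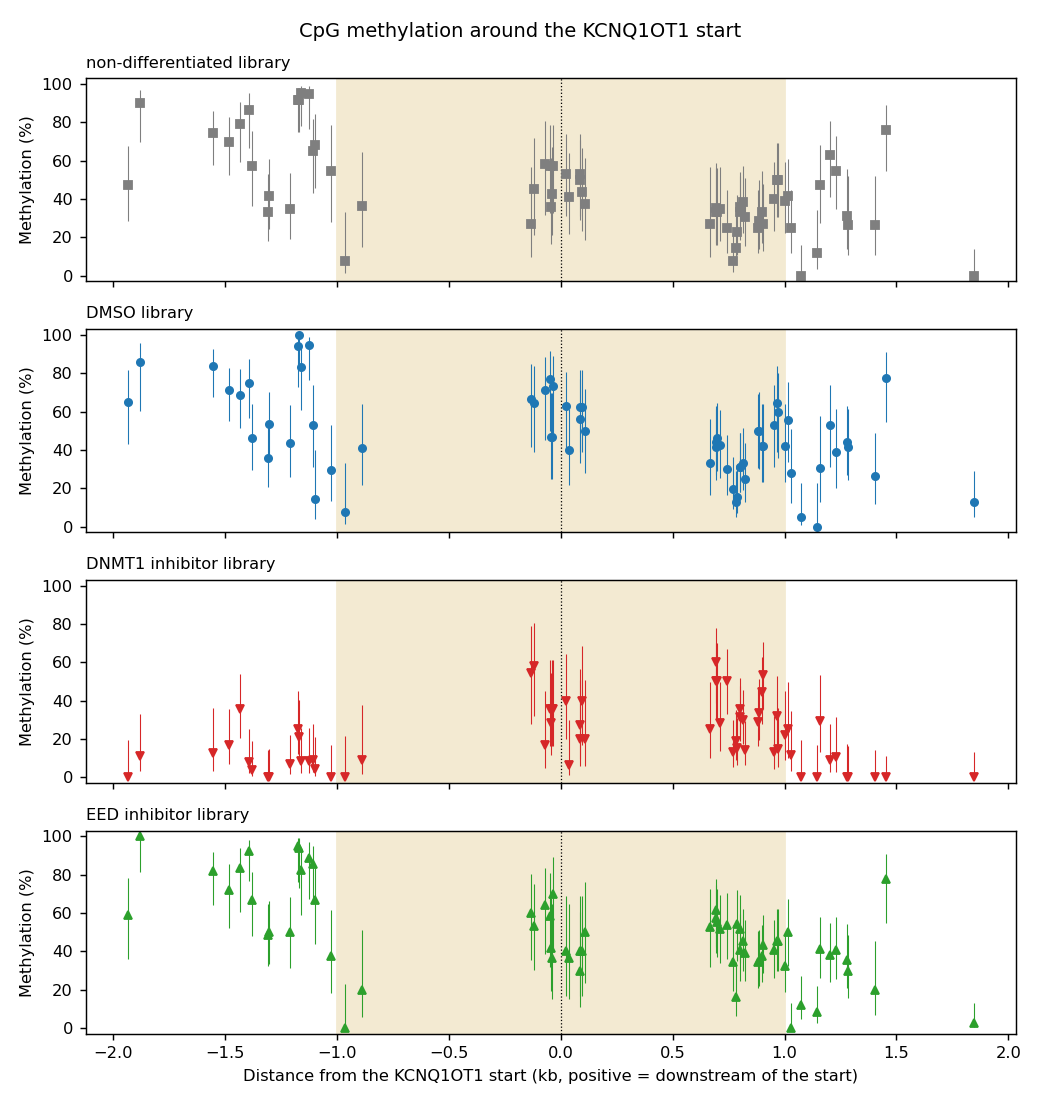
Methylation of each CpG listed in all 4 libraries (percent, vertical axis) against its distance from the KCNQ1OT1 start in kb (horizontal axis, positive values downstream), with 95% Wilson intervals as bars and 1 panel per library; the shaded band is the control region. In the DNMT1 inhibitor panel points in the band reach 60.0%, and points between 1 and 2 kb on either side reach at most 35.7%.

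The share of CpGs at intermediate levels, from 35 to 65%, describes a region methylated on part of its molecules. In the control region it was 57.1% of 35 CpGs in the non-differentiated library, 60.0% with DMSO, 40.0% after the DNMT1 inhibitor and 80.0% after the EED inhibitor. In the rest of the interval it was 18.7%, 19.3%, 10.5% and 19.1%, and over all shared CpGs 14.1%, 14.7%, 14.0% and 14.5%. No CpG of the control region was over 80% in any library, while 40.9% of CpGs in the rest were with DMSO. With a minimum of 20 reads, which leaves 11 CpGs of the control region, the shares in the same order were 27.3%, 27.3%, 18.2% and 72.7%. These 11 all lie from base 2699116 to base 2699289, so the setting changes the place as well as the depth.

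More CpGs of the control region are listed in single libraries: 83 in the non-differentiated library, 94 with DMSO, 54 after the DNMT1 inhibitor and 82 after the EED inhibitor. Over the 54 CpGs that the DMSO and DNMT1 inhibitor libraries both list, the levels were 47.2% and 33.1%, a difference of -14.1 points (-18.3 to -9.87), with 41 CpGs lower and 12 higher. The retained share over them was 70.0%.

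The differences for differentiation and the EED inhibitor varied along the control region. DMSO minus non-differentiated was 6.84 points (1.72 to 11.9), with 27 CpGs higher and 7 lower, while the rest of the interval had -0.91 points (-1.20 to -0.63). In 300 bp bins the levels were 36.2% (27.4 to 46.0) and 43.6% (34.4 to 53.2), and these intervals overlap. EED inhibitor minus DMSO was 2.09 points (-2.92 to 7.09), with 14 CpGs higher and 20 lower, and the retained share relative to the rest was 1.06 (0.94 to 1.19). Differentiation had its largest part difference in the 7 CpGs up to 500 bp upstream, 16.7 points (2.58 to 29.9) with all 7 higher. These 7 lie close together and can share reads, so they are not independent. The sign of the EED inhibitor difference was not the same along the region, at 8.58 points (2.73 to 14.3) more than 500 bp downstream and -16.0 points (-30.6 to -0.19) within 500 bp downstream. Both moved with the CpGs taken. DMSO minus non-differentiated was 12.7 points with borders at 500 bp (13 CpGs), 1.82 with borders at 1500 bp (61 CpGs) and 2.88 over the 11 CpGs with at least 20 reads. EED inhibitor minus DMSO was -10.6, 0.47 and 11.7 points in the same settings, so its sign turned with the narrow borders. Both comparisons use the same DMSO library.

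Windows of 1000 bp that held 3 or more shared CpGs were compared over the whole genome with Fisher's exact test (two-sided, on methylated and unmethylated reads) and Benjamini-Hochberg adjustment over all windows. A window was called where it differed by 25 points or more with an adjusted p under 0.01. These tests compare 2 libraries, not conditions. A read that covers several CpGs of a window counts once for each, so counts are not independent and p can be too small. With the DNMT1 inhibitor 637 of the 713 windows of the interval were called lower, or 89.3%, beside 81.3% of all windows tested, and none was called higher. At an unadjusted p under 0.05 there were 702, and the share of all windows at that limit was not computed. Of the 76 windows not called, 71 were under 35% with DMSO. The other 5 included both windows that cover the control region.

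The window at chr11:2699001-2700000 (26 CpGs, KCNQ1 intron and KCNQ1OT1 exon) had 33.8% in the non-differentiated library, 39.1% with DMSO, 30.7% after the DNMT1 inhibitor and 43.8% after the EED inhibitor. Its difference from DMSO with the DNMT1 inhibitor, -8.40 points (Fisher's exact test, adjusted p = 0.0023), was too small to be called. Among windows at 20% or more with DMSO, its retained share of 78.5% was the highest in the interval, and 0.019% of all such windows retained as much. The next window, at chr11:2700001-2701000 (9 CpGs), had 41.2%, 55.0%, 30.2% and 45.5% and retained 54.9%, a share that 0.80% of all windows reached. Its difference of -24.8 points lay just under the minimum for a call, as did those of the 3 other uncalled windows, which lay between -24.3 and -22.9 points. The window at chr11:2701001-2702000, upstream of the control region, was called lower and retained 16.4%.

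High retention was rare elsewhere in the cluster. In the interval 7 windows at 20% or more with DMSO retained at least 50%, or 1.03%, beside 1.81% of all such windows, and 2 of the 7 were those of the control region. The median window of the interval retained 22.01% (682 windows), beside 23.5% over the genome. Over windows with at least 10 CpGs and 35 to 65% with DMSO these medians were 21.5% (219 windows) and 23.7%. Between the control region's 2 windows in rank stood a window over an exon of TRPM5, a cation channel gene, at chr11:2415001-2416000, with 53.3%, 63.8%, 35.3% and 61.9% and a retained share of 55.4%. A window in a CD81-AS1 intron at chr11:2331001-2332000 had 76.7%, 78.1%, 42.1% and 81.8% and retained 53.9%. A window at chr11:2662001-2663000, over exons of KCNQ1 and KCNQ1OT1, had 85.9%, 85.7%, 45.9% and 83.5% and retained 53.5%. All 3 were called lower, since they began at higher levels.

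**Figure D3:**
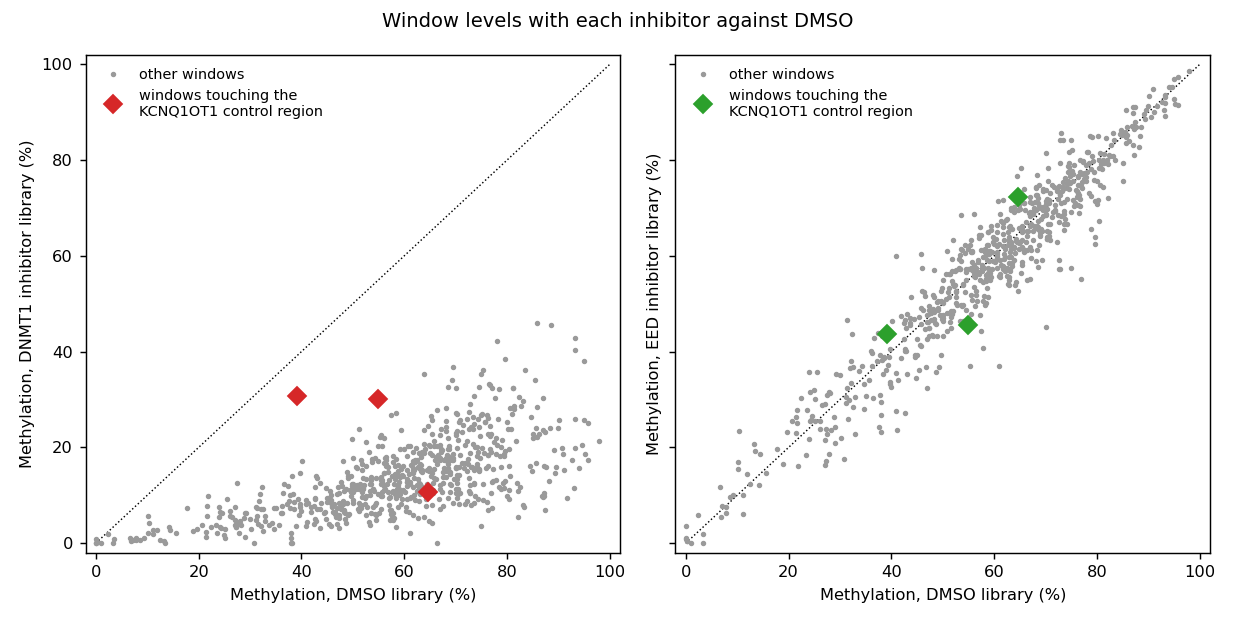
Methylation of the 713 windows of the interval (1000 bp each) with the DNMT1 inhibitor (left) and the EED inhibitor (right) against DMSO, in percent on both axes; the dotted line marks equal levels and diamonds mark windows that touch the KCNQ1OT1 control region. On the left 2 diamonds, at 30.7% and 30.2%, lie above the windows of similar DMSO level, and the third, mostly outside the control region, lies among them at 10.6%; on the right the windows follow the line.

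No window of the interval was called in the other comparisons. For differentiation 0.00115% of all windows were called and for the EED inhibitor 0.0325%, so 0 of 713 is near the background. At an unadjusted p under 0.05 the interval had 58 and 87 of its 713 windows. The share of all windows at that limit was not computed, so these counts have no background to be read against. The largest differences between DMSO and non-differentiated were 21.7 points at chr11:2696001-2697000, which lies 3 kb into KCNQ1OT1 (58.6% and 80.3%, adjusted p 0.020 by Fisher's exact test), and -15.4 points at chr11:2492001-2493000 in a KCNQ1 intron (76.4% and 61.0%, adjusted p 0.033). For the EED inhibitor they were -24.8 points at chr11:2837001-2838000 in a KCNQ1 intron (70.0% with DMSO and 45.2%, from 3 CpGs, adjusted p 0.31) and 19.2 points at chr11:2378001-2379000 over a CD81 exon (40.8% and 60.0%, adjusted p 0.11). The KCNQ1 window in the EED comparison and a TH window at chr11:2163001-2164000 (-24.0 points) were also among the 3 highest for differentiation, which shares the DMSO library. The lowest adjusted p in both comparisons belonged to a window over a TSSC4 exon at chr11:2401001-2402000 (44 CpGs), with 24.8% non-differentiated, 13.3% with DMSO, 0.52% after the DNMT1 inhibitor and 20.8% after the EED inhibitor. Its adjusted p by Fisher's exact test was 8.0e-06 for differentiation, at -11.5 points, and 0.012 for the EED inhibitor, at 7.46 points. Reads were summed over its 44 CpGs, so both p-values can be far too small.

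**Figure D4:**
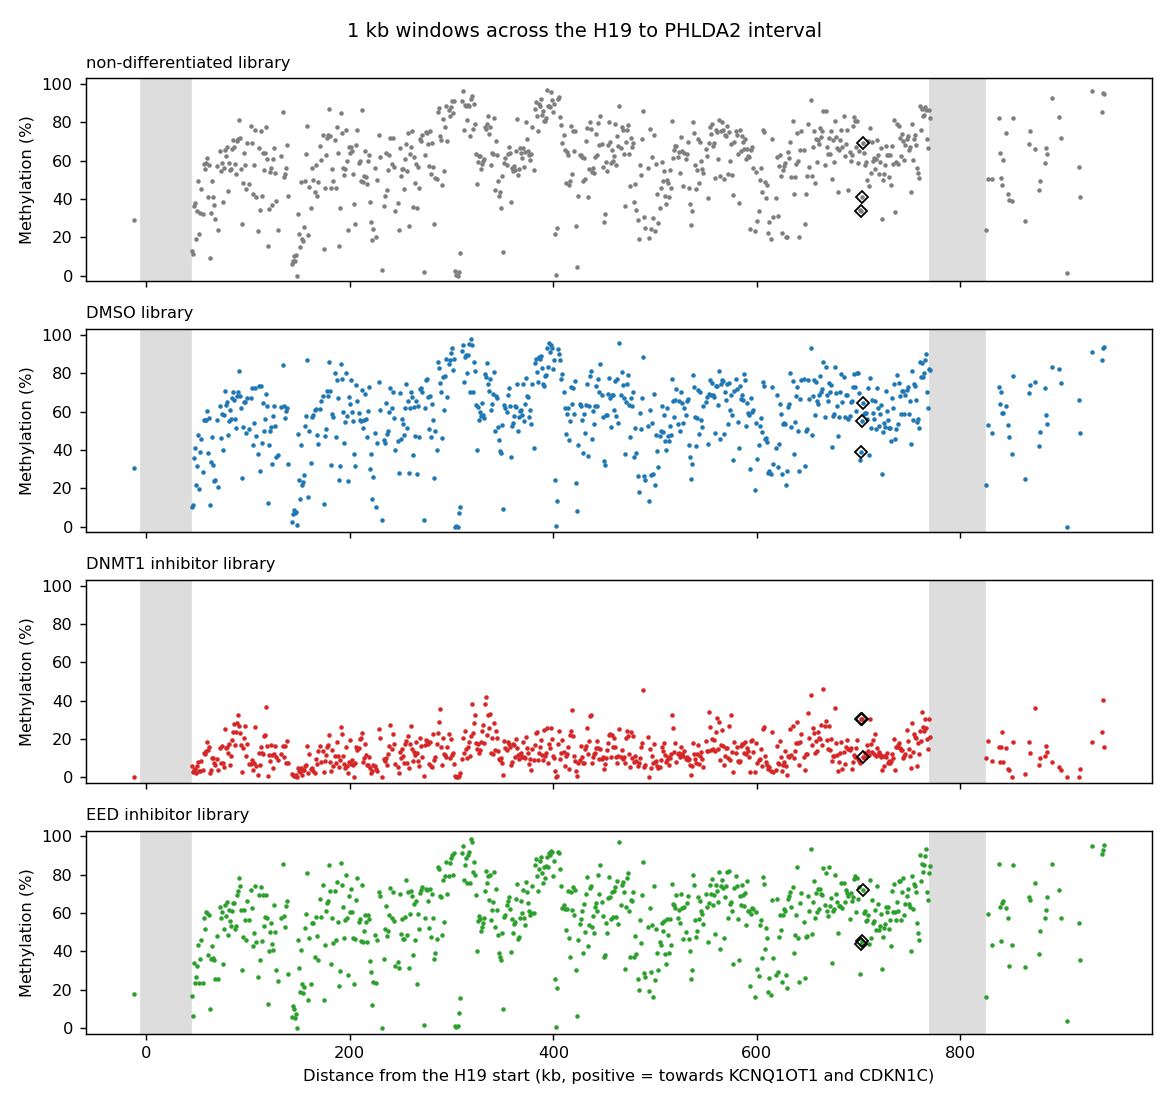
Methylation of 1000 bp windows (percent, vertical axis) against the distance of their centre from the H19 start in kb (horizontal axis), 1 panel per library; grey bands are the long stretches without a line in any library, the first of them over H19, and open diamonds are the windows that touch the KCNQ1OT1 control region. With the DNMT1 inhibitor 35.2% of the windows lie under 10%.

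IGF2 was the least methylated of the 3 described genes. Over its 474 shared CpGs (chr11:2129112-2158391) the level was 37.1% (36.1 to 38.1) non-differentiated, 37.2% (36.2 to 38.2) with DMSO, 6.79% (6.29 to 7.34) after the DNMT1 inhibitor and 34.5% (33.5 to 35.5) after the EED inhibitor. The DNMT1 inhibitor library retained 18.3%, with 342 CpGs lower and 9 higher. EED inhibitor minus DMSO was -2.67 points (-4.06 to -1.27), with 188 CpGs lower and 177 higher.

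The gene was uneven along its length. Its last exon (chr11:2129117-2133223, 70 CpGs) had 71.3%, 72.3%, 14.3% and 70.1%. The CpGs within 500 bp of the start at base 2149579 (21 CpGs) had 51.3%, 44.3%, 4.89% and 45.3%. Around the start at base 2141016, which lies in the body of IGF2-AS, the levels of 19 CpGs were 4.11%, 1.00%, 0.74% and 6.06%. EED inhibitor minus DMSO was there 5.06 points (2.23 to 8.25), with 11 CpGs higher and 2 lower. Around the start at base 2141238, which shares CpGs with it, the levels of 23 CpGs were 8.14%, 7.26%, 1.26% and 12.8%, and the difference was 5.53 points (1.52 to 9.57). The windows from chr11:2140001 to chr11:2146000 were all under 10% with DMSO. These 6 are among the 16 such windows of the interval, which make 2.24% of its windows beside 3.56% of all windows. The IGF2 starts from base 2137287 to base 2139389 had no CpG listed in all libraries within 500 bp.

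KCNQ1 and the body of KCNQ1OT1 had levels near those of the rest of the interval. KCNQ1 supplies 4526 of the 10350 CpGs of that rest and contains the KCNQ1OT1 body, so this likeness is partly built in. KCNQ1 without the control region (4526 CpGs of chr11:2444654-2849105) had 62.2%, 61.2%, 15.3% and 61.1% and retained 25.0% with the DNMT1 inhibitor. KCNQ1OT1 without the control region (730 CpGs of chr11:2597308-2700003) had 61.3%, 61.5%, 16.2% and 60.5% and retained 26.4%. Their EED inhibitor differences from DMSO were -0.10 points (-0.52 to 0.32) and -1.0 points (-1.97 to -0.04).

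Promoters, spanning 1000 bp before and 500 bp after a start, were tested over the genome in the same way where at least 5 CpGs were shared. In the interval 18 were tested, and 11 were called lower with the DNMT1 inhibitor, beside 57.5% of all promoters. The differentiation and EED inhibitor comparisons called none of them, and 0.00285% and 0.0171% of all promoters. At an unadjusted p under 0.05 there were 5 in each, and the share of all promoters at that limit was not computed. Of the 20 promoters of the cluster's listed genes 12 could be tested, and 2 pairs of them share all their CpGs. Of these, 5 were called lower with the DNMT1 inhibitor and none higher, with a median difference of -13.0 points, beside -30.5 points over all promoters. Among the 12, 6 were under 10% with DMSO. Over all 18 promoters tested in the interval the median difference was -34.0 points.

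Among the members, the KCNQ1OT1 promoter (15 CpGs, chr11:2699503-2701003, the control region without its part more than 500 bp downstream of the start) had 43.7%, 55.1%, 28.3% and 43.4%. It fell by 26.8 points with the DNMT1 inhibitor (adjusted p 5.3e-08 by Fisher's exact test) and retained 51.4%. With the promoter taken from 2000 bp upstream of the start, the difference was -44.7 points. Its call, and those of CD81 and KCNQ1DN described further on, were lost when read numbers were divided by the count of CpGs. The IGF2 promoter (24 CpGs, the same CpGs as for IGF2-AS) had 6.27%, 2.40%, 1.94% and 5.83% and was not called in any comparison. It was placed on the start at base 2139389, and no library listed a CpG within 500 bp of that start. All 24 CpGs thus lie more than 500 bp upstream of it, and the start itself is not described by them. For KCNQ1 no CpG was listed in all libraries, and those of the other libraries were all listed with DMSO too. The levels were 18.3% over 23 CpGs non-differentiated, 15.4% over 27 with DMSO and 2.41% over 15 with the EED inhibitor. With the DNMT1 inhibitor 0 of 76 reads over 7 CpGs were methylated. This allows up to 3.95% (3 reads of the total), or 4.81% by the Wilson interval, if all 76 are independent. They are sums over CpGs, at 10.9 reads per CpG on average. CpGs on 1 read are not independent, so both limits may be too low. Over the 23 CpGs that the non-differentiated and DMSO libraries both list, the levels were 18.3% and 16.9%. DMSO minus non-differentiated was there -1.45 points (-7.63 to 4.69). Over the 7 CpGs that the DMSO and DNMT1 inhibitor libraries both list, the levels were 5.62% and 0%, a difference of -5.62 points (-12.5 to 0.16). Over the 15 CpGs that the DMSO and EED inhibitor libraries both list, the levels were 4.95% and 2.41%, a difference of -2.54 points (-6.73 to 1.72). The PHLDA2 promoter (chr11:2928920-2930420) had 32.0% over 5 CpGs non-differentiated and 51.3% over 7 with DMSO. Over the 5 CpGs in both, DMSO minus non-differentiated was 21.4 points (2.72 to 38.1). Its 5 CpGs in the DNMT1 inhibitor library are others, so no comparison was made. There 0 of 51 reads, 10.2 per CpG on average, were methylated. This allows up to 5.88% by the limit of 3 reads, which may again be too low.

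The other promoters of the list fell into a methylated and an unmethylated group. INS, the insulin gene, and the read-through INS-IGF2 share a promoter (10 CpGs) with 64.8%, 70.1%, 2.03% and 66.1%. It fell by 68.1 points with the DNMT1 inhibitor and retained 2.89%, the lowest share of the called promoters. CD81, a tetraspanin gene (13 CpGs), had 73.4%, 69.3%, 18.9% and 68.9% and fell by 50.4 points. KCNQ1DN, a non-coding gene between KCNQ1 and CDKN1C (6 CpGs), had 66.3%, 75.3%, 36.3% and 75.6%, fell by 39.0 points and retained 48.1%. TH, the tyrosine hydroxylase gene (14 CpGs), had 33.5%, 31.4%, 8.13% and 32.3%, and its difference of -23.3 points was under the minimum for a call. ASCL2, a basic helix-loop-helix factor gene, C11orf21, TSPAN32 and TSSC4 were each under 4% in every library over the shared CpGs. Over all CpGs listed in a library, which differ between libraries, ASCL2 had 4.48%, 6.51%, 2.11% and 10.9%. Over the 34 that the DMSO and EED inhibitor libraries both list it had 5.71% and 4.68%. The promoters of H19, MRPL23-AS1, CDKN1C and SLC22A18AS had no line, those of KCNQ1, TRPM5 and PHLDA2 had no CpG in all libraries, and that of SLC22A18 had 4. The hairpin MIR675 lies within H19 and had no line either, and NAP1L4 lies outside the interval.

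Gene bodies of the same list ended with the DNMT1 inhibitor between 0% for MRPL23-AS1 (3 CpGs) and 36.3% for KCNQ1DN (6 CpGs, the same as for its promoter). With at least 20 shared CpGs the range was 1.49% for ASCL2 to 16.8% for CD81, apart from the KCNQ1OT1 control region. The TSSC4 gene (100 CpGs) had 59.2%, 49.4%, 9.62% and 56.5%, where DMSO minus non-differentiated was -9.73 points (-12.8 to -6.61) and EED inhibitor minus DMSO was 7.12 points (3.90 to 10.3). It had 33 CpGs lower and 28 higher in the first and 32 lower and 25 higher in the second. Its median CpG stood at 86.2%, 83.8%, 5.32% and 83.3%. Pooled levels weigh deeper CpGs more, and whether this made the differences was not tested. In other gene bodies EED inhibitor minus DMSO was -7.60 points (-15.0 to -0.12) for SLC22A18 and -1.89 (-3.29 to -0.49) for INS-IGF2. It was 7.16 points (2.42 to 11.8) for ASCL2 and 3.71 (0.42 to 6.99) for C11orf21.

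CTCF sites were looked for as CCGC, any 2 bases, then GGNGGCAG on both strands. The interval has 8 matches. The H19 control region holds 4 of them, and of 29880 tiles of 4500 bp on chromosome 11 0.137% hold any. A further match at chr11:2003019-2003032 lies just outside the border, and would fall inside it with the region placed from the start that most H19 transcripts share (1997842) in place of the one used here (1997514). None of the 4 had a listed CpG within 50 bp. The only match with shared CpGs near it lies at chr11:2664530-2664543, in a KCNQ1 intron and the KCNQ1OT1 exon. The 4 CpGs within 50 bp of it had 66.1%, 66.0%, 14.3% and 76.9%. A match is a description of letters, not of binding.

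Outside the interval, 20256 promoters with at least 20 shared CpGs were ranked by the distance of their levels in the 4 libraries from those of the KCNQ1OT1 control region. The nearest was SGCE, which encodes a sarcoglycan (46 CpGs), at 41.9%, 40.5%, 29.5% and 43.4% and a distance of 7.10 points. PCDHA13, a protocadherin gene (49 CpGs), followed at 39.8%, 41.7%, 25.3% and 42.0% and 7.35 points. ZNF875, KLHL11 and the non-coding gene ENSG00000278722 stood at 10.1, 10.3 and 11.1 points. With 4 libraries per promoter this likeness is a description.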

How the data were processed

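Genomic DNA of 4 HUDEP-2 cultures was bisulfite-converted and sequenced on whole-genome libraries. The submitters' processing notes name Trim Galore 0.6.7, cutadapt 4.1, Bismark, Bowtie2 2.1.0, methylKit and the build hg38, with no roles or order. Removal of duplicates is not given in the sources used here, and duplicates would make reads less independent. Per the file headers, each deposited table lists per CpG its coverage, a count of reads, and 2 percent values, for C and for T. Both strands of a CpG are merged, and every listed CpG has at least 10 reads. Whether a CpG without a line lacked reads was not tested. Methylated reads were recovered by rounding (0 CpGs off by more than 0.0005 of the coverage). Mean coverage was 27.2 to 29.7 reads per listed CpG.

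CpGs listed in all 4 libraries were used. Levels are methylated over all reads, so deeper CpGs weigh more, with 95% Wilson intervals, Newcombe intervals for differences and delta-method intervals for ratios. Windows and promoters (GENCODE 44; 1 transcript per gene) were tested over 2431792 and 35069 units with two-sided Fisher's exact tests in numba 0.67.0, with Benjamini-Hochberg adjustment. The code was tested on simulated data: of 200 lowered windows 90.0% were called in the DNMT1 inhibitor comparison. The H19 start was the annotated one nearest to, and at least 500 bp upstream of, MIR675. Named windows were the 5 with the highest retained share and the 3 largest differences in each direction, and all listed genes of the cluster are given. The members and lists were chosen with earlier results of these data known. Alternatives covered read minimum, weighting, borders, comparison set, window grid, promoter length and reads divided by CpGs. The printed sequence is from the hg38 reference, and 1 further sequence is not reported here.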

Additional observations from a re-analysis of the deposited data

How the results depend on the processing

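The higher retained share of the KCNQ1OT1 control region with the DNMT1 inhibitor (2.95 times the rest) kept its direction under every alternative run. It was 3.71 with at least 20 reads (11 CpGs), 2.18 with narrow borders (500 bp on either side, 13 CpGs), 1.88 with wide borders (1500 bp, 61 CpGs), 3.96 against CpGs of intermediate level, 3.58 with the non-differentiated library as reference and 2.32 in 300 bp bins. The last 2 settings, and the CpGs listed in both libraries compared, were chosen after seeing the data. The DNMT1 inhibitor difference was -2.37 points at 20 reads, -27.2 with narrow and -24.8 with wide borders and -20.5 in bins. The differentiation difference was 12.7 points with narrow borders, 1.82 with wide borders and 2.88 at 20 reads. The EED inhibitor difference was 11.7 at 20 reads, -10.6 with narrow and 0.47 with wide borders, -1.70 as an unweighted mean over CpGs, -3.97 with every CpG listed in a library and -5.94 in bins, and its ratio to the rest was 1.41 and 0.83 at 20 reads and with narrow borders, 0.87 in bins and 1.28 against the non-differentiated library, so its sign depends on the setting. The 11 CpGs with at least 20 reads all lie from base 2699116 to base 2699289, more than 500 bp downstream of the start. Narrow borders leave that part out, so these settings compare different places. Why the parts differ was not tested. A range of 25 to 75% put 88.6%, 85.7%, 65.7% and 91.4% of control region CpGs at intermediate levels (without differentiation, then DMSO, then DNMT1 and last EED inhibition), and at least 20 reads put 27.3%, 27.3%, 18.2% and 72.7% there. With at least 20 reads 416 windows were tested and 372 called lower with the DNMT1 inhibitor, and 6 promoters were tested and 4 called. Reads divided by CpGs left 474 of 713 windows and 6 promoters called lower with the DNMT1 inhibitor. A grid moved by 500 bp gave 1 window higher after differentiation. With 2000 bp upstream the TH promoter was called lower and the KCNQ1OT1 promoter difference was -44.7 points. Of 125 alternative values, 78 were classed as unchanged, 43 moved, 3 lost and 1 gained a call, and no called value changed sign. Only values of the control region were judged against an interval, and more of these moved than stayed within it. Single promoters were judged by their call, and counts of calls have no interval. Many of the 78 are counts of calls that were 0 and stayed 0, so the tally does not measure stability. No value could be computed for the H19 control region under any setting. No paired analysis was possible because each group has 1 library and the labels carry no replicate numbers. The control region rests on 35 CpGs of 10 to 39 reads each, so single CpGs are imprecise, and why its other CpGs have no line in all libraries was not tested.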
